A study of Homo sapiens with 45 samples.

Results

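A set of 10 genes linked to the mesenchymal state of neuroblastoma was followed through palbociclib treatment: the transcription factors and co-activators PRRX1, YAP1, WWTR1, FOSL1, FOSL2, SNAI2, TWIST1, RUNX1 and SOX9, and the intermediate filament gene VIM. They were chosen by name, to ask whether the drug moves adrenergic (ADRN) lines toward the mesenchymal state. Of these 10 genes, 9 were found among the 29159 genes counted, and PRRX1 was not analysed here. RNA-seq of polyA RNA came from 45 libraries of 3 established neuroblastoma lines, IMR-32, SH-SY5Y and SK-N-BE(2)C, with 5 replicates in each of 9 groups. In each line the groups were control, 24 h with 1 μM palbociclib (PB, an inhibitor of the cell cycle kinases CDK4 and CDK6) and longer PB, which was 7 d in SK-N-BE(2)C and 5 d in IMR-32 and SH-SY5Y. All 3 are established lines of the ADRN type in the study's terms, SK-N-BE(2)C carries amplified MYCN and 1p loss, IMR-32 amplified MYCN and MEIS1 and 1p loss, and SH-SY5Y mutant ALK and gains of 1q and 17q, and all cells grew in DMEM/F12 with serum. Each line is 1 culture line, and the replicates were, per the study's methods, different passages plated in independent experiments. The controls were harvested beside the 24 h cells, so longer PB and longer time in culture cannot be told apart, and neither can 7 d against 5 d and the lines.

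Neuroblastoma cells occur in an adrenergic state, held by factors such as HAND2 and GATA3, and in a mesenchymal state that resembles neural crest or connective tissue cells, and they can pass from one to the other. YAP1 and WWTR1 (also called TAZ) are co-activators that enter the nucleus when the Hippo kinases are inactive and bind DNA through TEAD factors. FOSL1 and FOSL2 pair with JUN proteins to form AP-1, SNAI2 and TWIST1 drive epithelial-mesenchymal transition (EMT) and neural crest migration, RUNX1 and SOX9 direct blood and cartilage or neural crest fates, and vimentin, the product of VIM, is the classical filament protein of mesenchymal cells.

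Libraries held 13459219 to 25441812 counts, so that a level of 1 CPM (counts per 1000000 counts of the library) stood for about 18.5 reads in the median library. A gene was tested in a line when enough of its 15 libraries held about 10 counts (the edgeR filter on low counts), and called when its adjusted p was under 0.05 and its log2 fold change was over 0.5 in either direction. Of the 9 genes, 7 were tested in SK-N-BE(2)C (all but YAP1 and RUNX1), 6 in IMR-32 (all but WWTR1, FOSL1 and SOX9) and 8 in SH-SY5Y (all but RUNX1). In untreated cells the 13 adrenergic factors listed summed to 6590 to 7990 CPM in SK-N-BE(2)C, 4090 to 5970 in IMR-32 and 4180 to 4800 in SH-SY5Y. Much of this was MYCN in the 2 lines where it is amplified, with 6.35 ± 1.16 CPM in SH-SY5Y beside 1640 ± 204 in IMR-32 and 3750 ± 458 in SK-N-BE(2)C (SD, n = 5). Without MYCN, a sum added after these values were seen, the other 12 held 4180 to 4790 CPM in SH-SY5Y, 2790 to 4200 in IMR-32 and 3230 to 4040 in SK-N-BE(2)C. Single factors were low: GATA2 stood at 4.45 ± 1.05 CPM in IMR-32, and INSM1, a zinc finger factor of neuroendocrine cells, held 0 reads in 12 of 15 SH-SY5Y libraries and at most 2 in the rest, and in SK-N-BE(2)C was at 0 in 2 libraries. IMR-32 replicate 5 stood apart. Among its 5 controls it held the highest value of 35.4% of all genes tested and the lowest of 40.7%. Main values of the 9 genes that rest on it are given below with it and, where the gene still passed the filter, without it. For the lists, counts and some levels are given without it. In SK-N-BE(2)C replicates 3, 4 and 5 lay close together, and the labels do not say whether they share a source, in which case that line would hold fewer than 5 independent replicates. The median absolute log2 difference over genes between any 2 of these 3 was 0.0918 to 0.101 in controls and 0.0796 to 0.0861 at 24 h, beside 0.144 to 0.172 and 0.163 to 0.177 between any of them and replicate 1 or 2, while at 7 d the ranges overlapped (0.111 to 0.198 beside 0.183 to 0.333). Calls lost when the 3 were summed into 1 sample are named below. Each of the 9 genes apart from FOSL1 shares exon bases with genes on the opposite strand, from 121 bases in SNAI2 to all 3931 in SOX9. The kit keeps strand, but the strand setting of the counting is not known from the sources used here, and reads of the opposite gene cannot be told apart.

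Promoter sequence was at hand for 5 of the 9 genes (YAP1, WWTR1, FOSL2, RUNX1 and VIM), as the 250 bases before the RefSeq start on GRCh38.p14. WWTR1 has 2 such windows. They were searched on both strands for letters bound by the genes' own families: GGAATG for TEAD, TGANTCA for AP-1, TGTGGT for RUNX and CAGGTG for SNAI factors, and for TTTNGCGC, bound by the E2F factors of the cell cycle. These letters were found in 11.9%, 6.57%, 11%, 17.5% and 1.51% of 35116 promoter windows of the same length. Of the windows of these genes, those of YAP1 and RUNX1 held the TEAD letters, those of VIM and 1 of the 2 WWTR1 windows held the RUNX letters, and FOSL2 held none of the 5 kinds. The windows of YAP1, RUNX1 and VIM are shown, since all 3 genes were called lower in IMR-32, with the TEAD or RUNX letters in capitals. A match describes the sequence and is not shown to be a bound site.
YAP1 (chr11:102110197-102110446, plus strand): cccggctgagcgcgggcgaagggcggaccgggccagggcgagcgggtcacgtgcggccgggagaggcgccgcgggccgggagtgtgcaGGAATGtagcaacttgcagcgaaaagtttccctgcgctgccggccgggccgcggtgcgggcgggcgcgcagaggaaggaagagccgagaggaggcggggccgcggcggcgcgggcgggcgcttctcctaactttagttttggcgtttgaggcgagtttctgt
RUNX1 (chr21:34888700-34888949, minus strand): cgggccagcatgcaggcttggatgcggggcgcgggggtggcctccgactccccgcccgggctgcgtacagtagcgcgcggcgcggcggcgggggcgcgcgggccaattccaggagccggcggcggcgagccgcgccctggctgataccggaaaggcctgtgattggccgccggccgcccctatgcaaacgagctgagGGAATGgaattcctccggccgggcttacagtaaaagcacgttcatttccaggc
VIM (chr10:17227991-17228240, plus strand): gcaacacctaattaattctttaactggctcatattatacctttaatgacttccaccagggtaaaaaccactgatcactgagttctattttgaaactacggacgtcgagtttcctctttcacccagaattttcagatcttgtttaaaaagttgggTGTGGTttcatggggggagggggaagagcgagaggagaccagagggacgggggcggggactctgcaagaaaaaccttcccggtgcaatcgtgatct

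In untreated cells VIM and TWIST1 were by far the highest of the 9 genes in every line on a scale of CPM per kilobase of exon. VIM in SK-N-BE(2)C stood at 106 ± 20.1 (SD, n = 5) and TWIST1 at 41.3 ± 5.52 on that scale. IMR-32 held 83.4 ± 39 of VIM and 107 ± 18.4 of TWIST1, and SH-SY5Y held 206 ± 34.9 and 168 ± 11.5. The next genes differed by line: FOSL2 (10.7 ± 1.05) and SOX9 (9.37 ± 0.673) in SK-N-BE(2)C, SNAI2 (1.82 ± 3.78) and FOSL2 (1.64 ± 0.152) in IMR-32, and YAP1 (5.34 ± 0.636) and SOX9 (5.23 ± 2.18) in SH-SY5Y. The IMR-32 value of SNAI2 came almost wholly from replicate 5. The replicates of VIM and TWIST1 overlapped in IMR-32 and SH-SY5Y and not in SK-N-BE(2)C, and those of each pair of next genes overlapped too. The plot of untreated levels shows the same order and how far each gene was from the others.

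**Figure D1:**
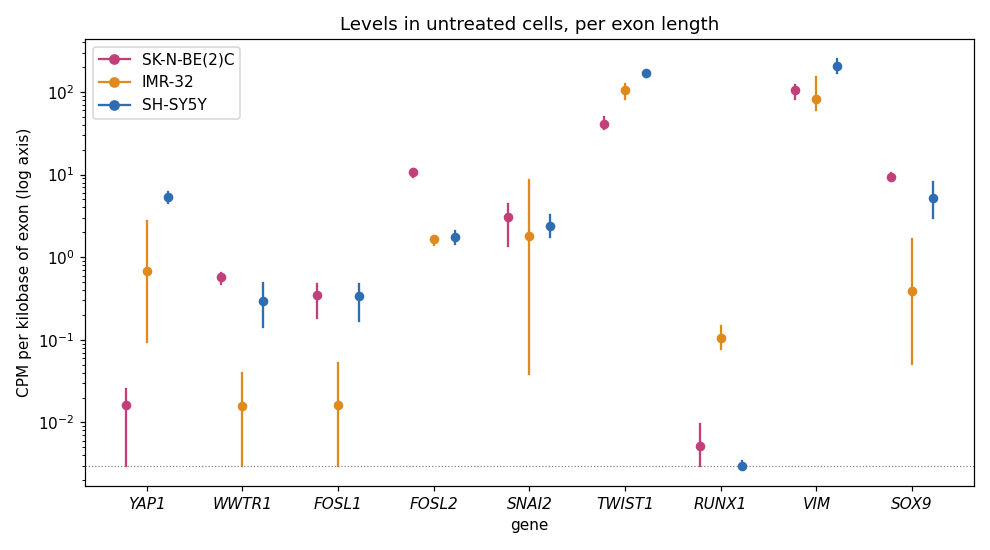
Level of each gene in untreated cells, as CPM per kilobase of exon on a log axis, by line (colours). Points are means of 5 replicates, lines run from the lowest to the highest replicate, and values below the dotted line are drawn on it. VIM and TWIST1 lie at 41.3 or higher in every line, and YAP1 and RUNX1 each span more than an order of magnitude between lines.

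Several of the genes were used by some lines and hardly by others, and 62.1%, 57.5% and 54.2% of all genes differed between the untreated lines (IMR-32 against SK-N-BE(2)C, SH-SY5Y against SK-N-BE(2)C and SH-SY5Y against IMR-32). Of the genes tested in both lines of a pair, 2 of 4, 5 of 7 and 2 of 5 differed. Without IMR-32 replicate 5 these were 3 of 3, 5 of 7 and 2 of 4, beside 63.3%, 58.2% and 54.9% of all genes. SNAI2 drops out of the counts then, since it passed the filter in IMR-32 only through that replicate. With it the log2 difference of SNAI2 was −0.79 ± 0.9 between IMR-32 and SK-N-BE(2)C (adjusted p 0.43) and 0.25 ± 0.9 between SH-SY5Y and IMR-32 (adjusted p 0.82), while the other 4 IMR-32 controls held 0.125 to 1.03 CPM. VIM in IMR-32 against SK-N-BE(2)C moved, without that replicate, from −0.36 ± 0.24 (adjusted p 0.17) to −0.72 ± 0.17 (adjusted p 0.00032). TWIST1 was higher in IMR-32 and SH-SY5Y than in SK-N-BE(2)C, by 1.35 ± 0.1 (SE) and 1.83 ± 0.1 on the log2 scale (adjusted p 2e-15 and 2.8e-19). FOSL2 had differences of −2.71 and −2.81 in the same 2 comparisons (adjusted p 1.9e-15 and 1e-15). VIM was higher in SH-SY5Y than in SK-N-BE(2)C by 0.76 ± 0.24 and than in IMR-32 by 1.12 ± 0.24 (adjusted p 0.0049 and 9.1e-05). WWTR1 was lower in SH-SY5Y than in SK-N-BE(2)C (log2 difference −1.19) and so was SOX9 (−1.05; adjusted p 0.0017 and 0.036), the latter not called when scaled by library size alone (adjusted p 0.09). YAP1 was higher in SH-SY5Y than in IMR-32 by 2.81 ± 0.51 (adjusted p 7.1e-06), and by 4.78 without IMR-32 replicate 5. YAP1 had 0 to 3 reads in SK-N-BE(2)C controls and 596 to 852 in SH-SY5Y controls, RUNX1 had 22 to 40 reads in IMR-32 controls and at most 3 in the controls of the other lines, and FOSL1 had at most 2 reads in any IMR-32 library.

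After 24 h of PB the genes called were all lower. Of the 7 tested in SK-N-BE(2)C, 1 was called (WWTR1), where 21.5% of all genes were called and 10.6% were lower. In IMR-32 none of 6 was called in the edgeR fit by line, where 18.3% of all genes were called and 10.5% were lower, or by DESeq2, and 1 of them, FOSL2, had an unadjusted p under 0.05 (0.017). YAP1 was called lower there in the fit of all 45 libraries (−1.59, adjusted p 0.03) and in the fit by line without 24 h replicate 5 (−2.58, adjusted p 0.047), both with control replicate 5 kept. With IMR-32 replicate 5 left out none of 5 was called, where 20.2% of all genes were. In SH-SY5Y 4 of 8 were called (SNAI2, TWIST1, WWTR1 and YAP1, all lower), where 21.5% of all genes were called and 11% were lower. By the longer time 6 of 7 genes were lower in SK-N-BE(2)C, 4 of 6 in IMR-32 and 6 of 8 in SH-SY5Y, beside 46.8%, 32% and 35.9% of all genes called in either direction, 22.3%, 15.5% and 17.3% called lower and 24.5%, 16.6% and 18.6% called higher. The single gene called higher was FOSL1 in SH-SY5Y. These fits did not pair the libraries. With the replicate number as a block SNAI2 in IMR-32 and SOX9 in SH-SY5Y were also called lower (adjusted p 0.035 and 0.0048). SNAI2 was tested in IMR-32 only through replicate 5. With all 45 libraries in 1 fit, which shares 1 estimate of the spread between lines, 3 of 7 were called at 7 d in SK-N-BE(2)C. There FOSL1, SNAI2 and SOX9 lost their calls (adjusted p 0.062, 0.069 and 0.17) at log2 fold changes of −1.04, −1.97 and −0.7, close to those of the fit by line given below. Without replicate 5, 4 of 5 genes were lower at 5 d in IMR-32, where 35% of all genes were called and 16.9% were lower. The median log2 fold change of the genes tested at the longer time was −0.94, −1.27 and −0.91, beside 0.01, 0 and 0.01 over all genes tested. The 24 h and longer comparisons of a line share their 5 controls. Here and below, 3 values given together without names belong to SK-N-BE(2)C first, IMR-32 next and SH-SY5Y last.

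**Figure D2:**
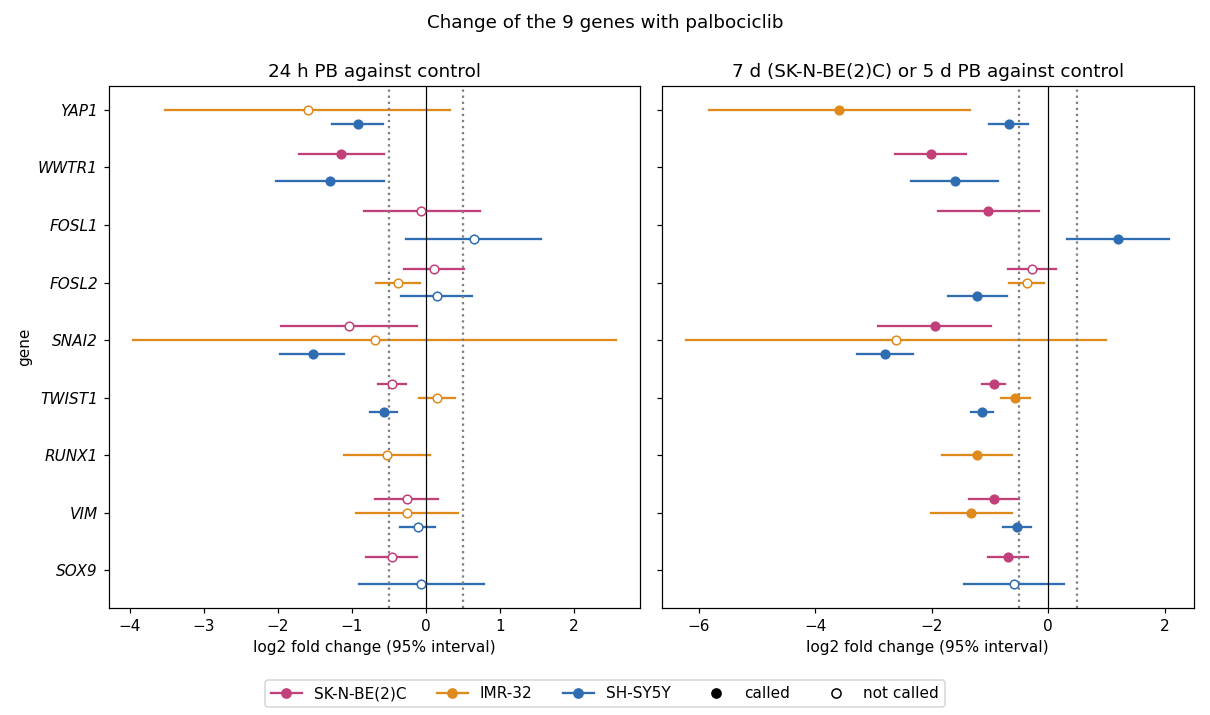
Log2 fold change against control (x axis) of each gene (y axis) after 24 h (left) and after the longer PB treatment (right) in each line, with 95% intervals from the edgeR fit; filled points were called and dotted lines mark the limit of 0.5. At the longer time every filled point lies left of 0 except FOSL1 in SH-SY5Y, at 1.2.

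TWIST1, a basic helix-loop-helix factor of EMT and neural crest (chromosome 7, 19060614-19157259 on GRCh37, minus strand), was called lower at the longer time in all 3 lines. In SK-N-BE(2)C the 5 controls held 99.9, 77.5, 70.4, 84.8 and 79.8 CPM, the 24 h cells 66.2, 56.3, 60.2, 59.8 and 63.3, and the 7 d cells 48.5, 49.4, 41.6, 41.9 and 39.8. No value of a later group reached any value of an earlier one. Its log2 fold change was −0.46 ± 0.09 at 24 h, inside the limit of 0.5 (adjusted p 0.00048), and −0.94 ± 0.091 at 7 d (adjusted p 1.1e-07). SH-SY5Y showed the same steps, from 338, 304, 354, 361 and 325 CPM in controls to 221, 209, 238, 228 and 246 at 24 h and 156, 137, 143, 175 and 194 at 5 d. Its groups did not overlap either, with log2 fold changes of −0.57 ± 0.087 and −1.13 ± 0.088 (adjusted p 2.9e-05 and 6.4e-09). In IMR-32 the control and 24 h groups overlapped, with 246, 215, 188, 250 and 165 CPM in controls and 244, 248, 210, 218 and 220 at 24 h, and 5 d cells stood lower at 155, 124, 143, 138 and 164. The IMR-32 log2 fold change was 0.15 ± 0.11 at 24 h and −0.57 ± 0.11 at 5 d (adjusted p 0.35 and 0.00077), and −0.69 ± 0.1 at 5 d without replicate 5.

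The 24 h response of TWIST1 differed between lines by a test of the difference. It was higher in IMR-32 than in SK-N-BE(2)C by 0.6 ± 0.14 (95% interval 0.31 to 0.89, adjusted p 0.006) and lower in SH-SY5Y than in IMR-32, with a difference of −0.68 ± 0.14 (adjusted p 0.0024). The share of all genes whose 24 h response differed was 4.49% and 3.07% for these pairs. Between SH-SY5Y and SK-N-BE(2)C, where 2.04% of all genes differed, edgeR called none of 7 of the followed genes and all 7 intervals held 0, that of TWIST1 being −0.37 to 0.21. At 5 d the difference between SH-SY5Y and IMR-32 was −0.51 ± 0.14 (adjusted p 0.0057), where 20.8% of all genes differed. Without IMR-32 replicate 5 the 24 h differences were 0.55 and −0.63 (adjusted p 0.0076 and 0.0031), and the 5 d difference was −0.39 and no longer past the limit of 0.5.

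VIM (chromosome 10, 17270240-17279592, plus strand), whose product vimentin is the filament protein, was not called at 24 h (log2 fold changes −0.26, −0.26 and −0.11) and was called lower at the longer time in all 3 lines. In SK-N-BE(2)C it held 445, 424, 606, 626 and 637 CPM in controls, 341, 339, 551, 554 and 554 at 24 h and 201, 246, 409, 327 and 293 at 7 d. Every 7 d value was below every control value, with a log2 fold change of −0.93 ± 0.2 (adjusted p 0.00072). Replicates 1 and 2 were the lower pair in each of the control and 24 h groups. In IMR-32 controls VIM held 336, 354, 361, 316 and 791 CPM, in 24 h cells 282, 313, 273, 246 and 640, and in 5 d cells 145, 130, 205, 133 and 262. Replicate 5 was the highest each time, and still all 5 d values were below all controls. Its log2 fold change was −1.32 ± 0.33 (adjusted p 0.004), and −1.16 ± 0.13 without replicate 5 (adjusted p 1.8e-06). In SH-SY5Y it went from 1150, 1130, 1290, 875 and 888 CPM to 747, 678, 830, 836 and 787 at 5 d. Its log2 fold change of −0.53 ± 0.11 (adjusted p 0.00054) was close to the limit, and was −0.45 without control replicate 3 and −0.49 without 5 d replicate 2, which ends the call, as do scaling by library size alone (−0.46) and the fit of all 45 libraries (−0.51, adjusted p 0.071). The 5 d responses of SH-SY5Y and IMR-32 differed by 0.84 ± 0.34 (adjusted p 0.057), and the difference was called without IMR-32 replicate 5 (0.69, adjusted p 0.025) and with the replicate number as a block (0.81, adjusted p 2.6e-05).

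SNAI2 (chromosome 8, 49830157-49834299, minus strand), a zinc finger repressor of epithelial genes and a marker of migrating neural crest, had the largest log2 fold change of the 9 in SH-SY5Y. The controls of SH-SY5Y held 7.39, 5.84, 8.18, 7.49 and 10.8 CPM, the 24 h cells 2.73, 1.86, 2.79, 2.6 and 3.77 and the 5 d cells 1.29, 0.893, 1.06, 0.84 and 1.87. All controls lay above all treated cells. This gave a log2 fold change of −1.53 ± 0.21 at 24 h and −2.81 ± 0.23 at 5 d (adjusted p 7e-06 and 1.1e-08). The 24 h change was not called in the fit of all 45 libraries (−1.51, adjusted p 0.22). The controls of SK-N-BE(2)C ranged over 4.49, 6.67, 14.5, 11.5 and 13.2 CPM, 24 h cells over 1.75, 3.22, 6.15, 6.58 and 7.42 and 7 d cells over 0.821, 3.56, 4.54, 2.5 and 1.71. Replicate 1 was the lowest of each group, and 7 d replicate 3 was above the lowest control. At 7 d it changed by −1.95 ± 0.45 on the log2 scale (adjusted p 0.0013). At 24 h it was −1.04 ± 0.43 (adjusted p 0.061), and −1.06 ± 0.23 with the replicate number as a block, which calls it (adjusted p 0.0019) and takes the number called in that comparison from 1 to 2.

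In IMR-32 SNAI2 rested on replicate 5. Controls 1 to 4 held 0.309, 0.25, 1.03 and 0.125 CPM (3 to 19 reads) and control 5 held 28.2 CPM, or 490 reads. At 24 h the first 4 held 0.0978, 0.15, 0.892 and 0.163 CPM and replicate 5 held 17.3, and at 5 d they held 0.0582, 0.109, 1.72 and 0.0548 beside 2.97. Replicates 5 and 3 were the highest in each group. The log2 fold change at 5 d was −2.61 ± 1.7 (adjusted p 0.21), or 1.23 without control replicate 5, or −1.62 ± 0.61 with the replicate number as a block (adjusted p 0.035, called). Without replicate 5 in every group SNAI2 failed the filter on low counts, so it was tested in IMR-32 only through that replicate. The 5 d response of SH-SY5Y minus that of IMR-32 was −0.17 ± 1.5 (adjusted p 0.98), and no such difference is given without that replicate.

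YAP1 (chromosome 11, 101981178-102104155, plus strand), the Hippo co-activator whose promoter window above holds the TEAD letters, exceeded 20 CPM in controls of SH-SY5Y alone. There the controls held 36, 32.9, 39.3, 29 and 31.5 CPM, the 24 h cells 19.8, 18.4, 20.3, 13.8 and 17.5, and the 5 d cells 32.5, 26.3, 19.5, 15.8 and 16.4. Every 24 h value was below every control, while at 5 d replicate 1 was back among them. YAP1 changed by −0.92 ± 0.16 at 24 h and −0.68 ± 0.16 at 5 d on the log2 scale (adjusted p 0.00018 and 0.0014), and 5 d against 24 h was 0.24 ± 0.17 (adjusted p 0.25). Neither SH-SY5Y call was made in the fit of all 45 libraries (−0.89 and −0.66, adjusted p 0.14 and 0.24). In IMR-32 controls 1 to 4 held 1.24, 1.45, 0.599 and 1 CPM and control 5 held 17.4. The IMR-32 5 d cells held 0.407, 0.654, 0.0573, 0.329 and 0.336 CPM, or 1 to 12 reads. The 5 d log2 fold change was −3.59 ± 1 (adjusted p 0.011), −1.58 without control replicate 5 (adjusted p 0.061, not called) and −1.56 ± 0.41 without replicate 5 in every group (adjusted p 0.0039). With the replicate number as a block 5 d against 24 h was also called in IMR-32 (−1.76 ± 0.63, adjusted p 0.036, beside −2 ± 1.1 and 0.17 without it). YAP1 was not tested in SK-N-BE(2)C. It held 0 to 3 reads in controls, 1 to 6 at 24 h and 2 to 15 at 7 d.

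The 5 d response of YAP1 differed between SH-SY5Y and IMR-32 by 2.93 ± 0.88 (95% interval 1.15 to 4.71, adjusted p 0.0098), and by 0.93 ± 0.45 without IMR-32 replicate 5 (adjusted p 0.1), so the difference was called only with that replicate.

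WWTR1 (chromosome 3, 149235022-149454501, minus strand), the paralog of YAP1, was called lower at 24 h in SK-N-BE(2)C and SH-SY5Y. None of the other 8 was called at 24 h in more than 1 line in the fit by line. Alternatives added the SK-N-BE(2)C call of SNAI2 (−1.06 with the replicate number as a block and −1.05 by DESeq2, adjusted p 0.0019 and 0.027) and that of TWIST1 (−0.5 with replicates 3, 4 and 5 summed, adjusted p 0.014). In SK-N-BE(2)C it held 3.93, 4.34, 5.19, 5.28 and 5.41 CPM in controls, 1.7, 2.48, 3.2, 1.73 and 2.04 at 24 h and 0.884, 2.43, 1.35, 0.681 and 0.716 at 7 d. No treated value reached a control, and the log2 fold change was −1.15 ± 0.27 and then −2.02 ± 0.29 (adjusted p 0.0025 and 9.9e-06). In SH-SY5Y it fell from 2.7, 2.68, 4.12, 1.19 and 1.48 CPM to 0.949, 1.4, 1.48, 0.683 and 0.524 at 24 h and 1.29, 0.893, 0.966, 0.448 and 0.544 at 5 d. Control replicates 4 and 5 were within the range of the treated cells, and the log2 fold change was −1.3 ± 0.35 and −1.61 ± 0.36 (adjusted p 0.005 and 0.00068). IMR-32 libraries held 0 to 7 reads of WWTR1. Of the pair, WWTR1 alone was tested in SK-N-BE(2)C, YAP1 alone in IMR-32 and both in SH-SY5Y, and each was called lower at the longer time wherever it was tested, with the limits given for YAP1 in IMR-32 and SH-SY5Y.

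**Figure D3:**
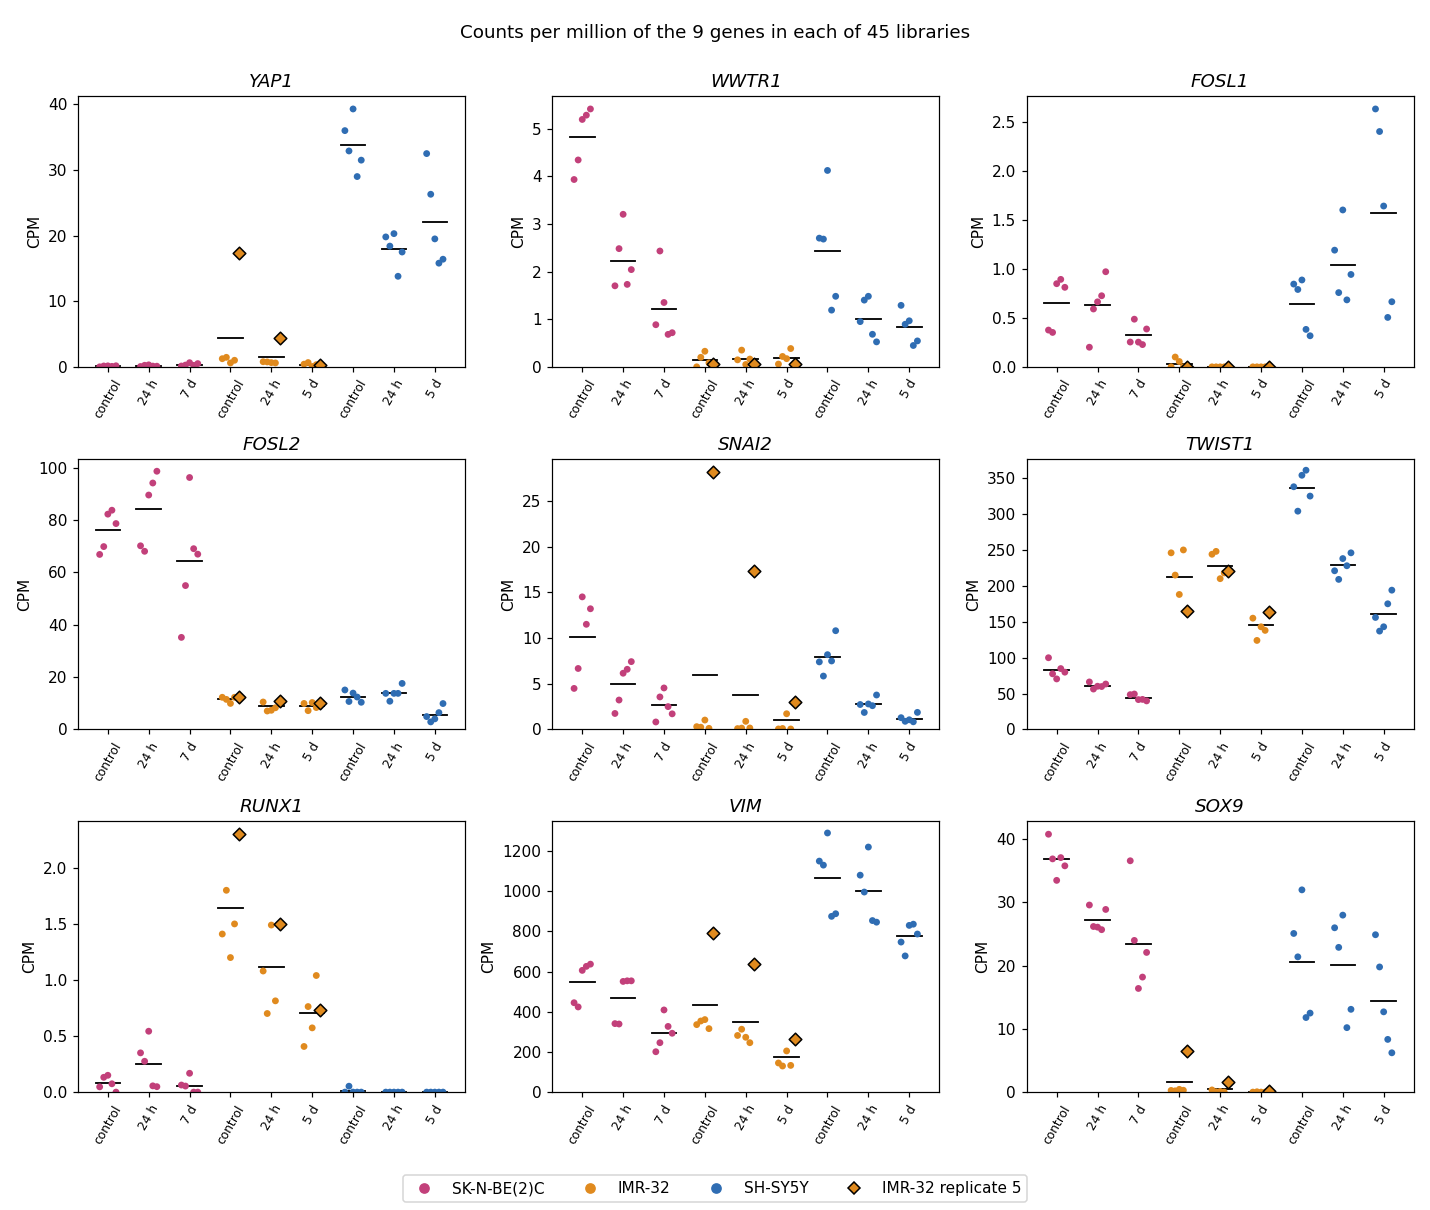
CPM of each of the 9 genes (1 panel each, linear axis from 0) in every library, by line and group. Points are replicates, black bars are group means of 5 and diamonds mark IMR-32 replicate 5, which in controls held 28.2 CPM of SNAI2 and 17.4 of YAP1, above the other 4.

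The 2 FOS-like genes did not move alike. FOSL1 (chromosome 11, 65659520-65668044, minus strand), an AP-1 subunit of invasive cells, had 4 to 47 reads in the libraries of the lines where it was tested. In SH-SY5Y it was the gene called higher: controls held 0.844, 0.789, 0.886, 0.382 and 0.317 CPM, 24 h cells 1.19, 0.757, 1.6, 0.683 and 0.942, and 5 d cells 2.63, 2.4, 1.64, 0.504 and 0.664. Replicates 1 to 3 were above every control at 5 d and replicates 4 and 5 were not. Its log2 fold change was 1.2 ± 0.42 (adjusted p 0.017), and 0.95 without 5 d replicate 1 and 1 without 5 d replicate 2 (adjusted p 0.057 and 0.054), so either library decides the call. FOSL1 in SK-N-BE(2)C went from 0.375, 0.351, 0.848, 0.892 and 0.811 CPM in controls to 0.253, 0.486, 0.252, 0.227 and 0.386 at 7 d. This is 8 to 17 reads against 4 to 9, with a log2 fold change of −1.03 ± 0.41 (adjusted p 0.034). The call was lost in 6 of 10 fits that left out 1 library, namely control replicate 3, 4 or 5 or 7 d replicate 1, 3 or 4, with log2 fold changes from −1.22 to −0.91 over all 10, and when replicates 3, 4 and 5 were summed (−0.8, adjusted p 0.23).

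FOSL2 (chromosome 2, 28615315-28640184, plus strand), the higher of the pair per kilobase in untreated cells of every line, was lower at 5 d in SH-SY5Y. There 24 h cells held 13.8, 10.8, 13.8, 13.8 and 17.6 CPM beside 15.1, 10.7, 13.9, 12.4 and 10.4 in controls, and 5 d cells held 4.93, 2.9, 4.06, 6.44 and 9.91. All 5 d values were below all others, with a log2 fold change of −1.22 ± 0.24 (adjusted p 3e-04) and of 0.15 ± 0.23 at 24 h. The 7 d cells of SK-N-BE(2)C ranged from 35.2 to 96.3 CPM and overlapped the controls (66.9 to 83.8), with a log2 fold change of −0.28 ± 0.19 (95% interval −0.69 to 0.13, adjusted p 0.2). In IMR-32 the log2 fold change at 5 d was −0.37 ± 0.14 (adjusted p 0.039), inside the limit of 0.5. The 5 d response was lower in SH-SY5Y than in IMR-32 (difference −0.79 ± 0.3, adjusted p 0.038), and −0.8 without IMR-32 replicate 5 (adjusted p 0.054).

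RUNX1 (chromosome 21, 36160098-37376965, minus strand), a runt domain factor of blood and neural crest derivatives, was tested in IMR-32 alone. IMR-32 controls held 1.41, 1.8, 1.2, 1.5 and 2.3 CPM, 24 h cells 1.08, 0.701, 1.49, 0.814 and 1.5 and 5 d cells 0.407, 0.763, 0.573, 1.04 and 0.728. All 5 d values were below all controls, at 7 to 19 reads against 22 to 40. The log2 fold change was −1.23 ± 0.29 at 5 d (adjusted p 0.0023), and −1.09 ± 0.3 without replicate 5. SK-N-BE(2)C libraries held at most 9 reads of RUNX1. In SH-SY5Y 1 read was found in 1 of 15 libraries, and a count of 0 allows up to 3 reads, or about 0.168 CPM at the median depth of the 5 d cells.

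SOX9 (chromosome 17, 70117161-70122557, plus strand), a neural crest and cartilage factor, was expressed in SK-N-BE(2)C and SH-SY5Y. In SK-N-BE(2)C it held 40.8, 36.9, 33.5, 37.1 and 35.8 CPM in controls, 29.6, 26.2, 26.1, 25.7 and 28.9 at 24 h and 36.6, 24, 16.4, 18.2 and 22.1 at 7 d. All 24 h values were below all controls, and at 7 d replicate 1 alone was within their range. The log2 fold change was −0.46 ± 0.16 at 24 h (adjusted p 0.028, inside the limit) and −0.69 ± 0.16 at 7 d (adjusted p 0.0013). In SH-SY5Y replicates 1 to 3 were high in controls (25.1, 21.4 and 32 CPM) and 4 and 5 low (11.8 and 12.5), and the same split stood at 24 h (26, 22.9 and 28 beside 10.2 and 13.1). At 5 d they held 24.9, 19.8, 12.7, 8.34 and 6.22 CPM. The log2 fold change at 5 d was −0.59 ± 0.4 (adjusted p 0.21), and −0.62 ± 0.17 with the replicate number as a block (adjusted p 0.0048, called), as was 5 d against 24 h (−0.57 ± 0.17, adjusted p 0.013). IMR-32 controls 1 to 4 held 4 to 8 reads of SOX9 and control 5 held 112.

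Some of the genes were lower at the longer time than at 24 h. Of 7 in SK-N-BE(2)C, 2 (VIM and WWTR1) were lower at 7 d than at 24 h, where 31.9% of all genes differed and 14.4% were lower. Both of these calls were lost when replicates 3, 4 and 5 were summed (VIM −0.65, adjusted p 0.061; WWTR1 −0.67, adjusted p 0.16). In IMR-32 2 of 6 (TWIST1 and VIM) were lower at 5 d than at 24 h, where 19.6% differed and 8.86% were lower, and in SH-SY5Y 3 of 8 (FOSL2, SNAI2 and TWIST1), where 16.7% differed and 6.23% were lower, SNAI2 not being called in the fit of all 45 libraries (−1.28, adjusted p 0.39). None was higher. Groups that did not overlap were counted as well. At 24 h they were 3 of 7 genes in SK-N-BE(2)C, none of 6 in IMR-32 and 3 of 8 in SH-SY5Y, all lower, beside 18.1%, 13.8% and 18.1% of all genes lower with no overlap. Between 7 d and control, groups of 3 of the 7 genes tested in SK-N-BE(2)C did not overlap, all lower, beside 27% of all genes lower with no overlap; at 5 d these were 3 of 6 in IMR-32 beside 19.4%, and 4 of 8 in SH-SY5Y beside 20%. From 24 h to the longer time 1 of 7, 1 of 6 and 3 of 8 were lower with no overlap, beside 21.3%, 9.34% and 8.93%.

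IMR-32 replicate 5 held a profile of these genes of its own. Its control was highest of the 5 for 5 of the 6 genes tested (all but TWIST1, for which it was lowest), beside 35.4% of all genes highest and 40.7% lowest there. SNAI2 passed the filter only through this replicate, so that its place among the 5 was fixed by the filter. The control stood at 101 times the median of the other 4 controls for SNAI2, 15.5 times for YAP1 and 2.29 times for VIM. Genes of the lists lay on both sides in it. It was highest for 6 and lowest for 6 of 16 effectors, near the shares of all genes, and lowest for 10 of 13 adrenergic factors. ID1, an inhibitor of helix-loop-helix factors induced by BMP signals, held 138 CPM in it and 0.852 to 1.31 in the other controls, SNAI1 67.7 beside 8.06 to 8.92, PDGFRA 114 beside 34.3 to 41.5 and NES 372 beside 140 to 184. ANXA2 was instead lowest there, at 150 CPM beside 219 to 246, as were SPARC (160 beside 197 to 224), LMNA (15.3 beside 19.7 to 26) and PDGFRB (11.1 beside 13.4 to 18.7). The adrenergic factor HAND2 was lower there, at 536 CPM beside 667 to 875. After 5 d of PB the same number held 2.97 CPM of SNAI2, 0.336 of YAP1 and 262 of VIM, and ID1 was at 15. The genes other than the 9 were singled out here after their values were seen, and their part in the results was not tested.

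Leaving out IMR-32 replicate 5 gave, for the lists described next, counts at 5 d of 1 higher and 6 lower of 14 YAP1 and WWTR1 targets, none higher and 3 lower of 7 EMT factors, none higher and 7 lower of 12 Notch genes, 2 higher and 7 lower of 16 effectors and 2 higher and 1 lower of 13 adrenergic factors. Other factors of the mesenchymal state moved most, from 3 lower and 1 higher of 16 to 6 lower and none higher of 17 at 5 d, and from 3 lower of 16 to 8 lower of 17 at 24 h, with none higher at 24 h in either case. Without that replicate 18.1% of all genes were higher and 16.9% lower at 5 d, and 9.14% and 11.1% at 24 h. The lists were chosen with earlier results of these data known, and their counts are read beside these shares and those of all genes given above.

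The genes whose levels ran most like those of each member were named by the mean over lines of Pearson's r with the member across the 15 libraries of a line, over 12556 genes tested in all 3 lines. These libraries share the treatment groups, so the values describe likeness of course and nothing else. Nearest to SNAI2 was ID1 (mean r 0.94; 0.89 in IMR-32, 0.95 in SH-SY5Y and 0.97 in SK-N-BE(2)C), then POLDIP3 (0.9) and ATOH8 (0.89). The IMR-32 part of these rested on replicate 5, through which alone SNAI2 was tested there: over the other 12 IMR-32 libraries, a check also chosen after the values were seen, r was 0.41 for ID1, 0.47 for POLDIP3 and 0.4 for ATOH8. Nearest to VIM were SERPINH1, a collagen chaperone (0.9), HLX (0.89) and CCDC80 (0.88). Nearest to TWIST1 were KXD1, KHDRBS1 and STAT5B (0.9 each), and nearest to FOSL2 were CHST3 (0.86), SMAD6 (0.84) and LFNG (0.8).

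The DNA-binding partners of YAP1 and WWTR1 moved in part. Of the TEAD factors and their VGLL co-factors, 2 of 5 tested were lower and none higher at 7 d in SK-N-BE(2)C, 3 of 6 lower and none higher at 5 d in IMR-32, and 2 of 5 lower and 1 higher in SH-SY5Y. TEAD2 was lower in all 3 lines (log2 fold change −3 ± 0.16, −2.39 ± 0.29 and −0.66 ± 0.073; adjusted p 1.8e-10, 1.5e-05 and 3.8e-07), from 14.9 to 1.94, 52.1 to 10 and 126 to 83.7 CPM. TEAD4 was also lower in all 3 (−1.92, −1.24 and −1.29), and already at 24 h (−1.28, −1.09 and −1.03). TEAD1 and VGLL4 passed no call at the longer time, with log2 fold changes of 0.42, 0.11 and −0.19 for TEAD1 and 0.04, 0.45 and 0.2 for VGLL4.

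The Hippo kinases and their scaffolds, which hold YAP1 and WWTR1 out of the nucleus, were lower in part: 6 of 11 tested in SK-N-BE(2)C, 6 of 12 in IMR-32 and 4 of 11 in SH-SY5Y, with 1, 1 and none higher. STK3 (the kinase MST2) was lower in all 3 lines (−1.78 ± 0.14, −2.73 ± 0.23 and −0.51 ± 0.088), and MOB1A in IMR-32 and SK-N-BE(2)C (−1.02 and −0.87, beside −0.17 in SH-SY5Y). AMOTL1 was lower in SH-SY5Y (−0.58) and stood at −0.2 and −0.44 in the other lines. Of the target genes listed for YAP1 and WWTR1, 3 of 15 tested were lower and 6 higher in SK-N-BE(2)C, 6 of 14 lower and none higher in IMR-32 and 8 of 13 lower and none higher in SH-SY5Y. CCN1, a secreted matrix protein, was lower in IMR-32 and SH-SY5Y (−1.39 ± 0.17 and −1.42 ± 0.25), as was PTPN14, a phosphatase that binds YAP1 (−4.5 ± 0.6 and −0.79 ± 0.25). ASAP1 was lower in SK-N-BE(2)C (−0.55), with −0.4 and 0.08 in the others, and RBMS3 passed no call in any line (−0.03, 0.28 and −0.16).

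JUN, the main partner of the FOS-like proteins, was called higher after longer PB in each line, by 0.56 ± 0.077, 1.54 ± 0.29 and 0.78 ± 0.1 on the log2 scale (adjusted p 5.8e-06, 0.00056 and 3.6e-06), from 78.2 to 119, 108 to 316 and 43.2 to 78.1 CPM. Of its list 2 of 9 were higher and 3 lower in SK-N-BE(2)C, 2 of 8 each way in IMR-32 and 3 of 10 higher with none lower in SH-SY5Y. MAFF was lower in IMR-32 and SK-N-BE(2)C (−0.69 and −1.75) and 0.45 in SH-SY5Y, JUND passed no call (0.1, 0.18 and 0.38), and MAFG was higher in SH-SY5Y (0.54, beside 0.36 and 0.16).

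Of the other EMT factors listed, 2 of 7 tested were lower and 1 higher in SK-N-BE(2)C, 3 of 7 lower in IMR-32 and 4 of 7 lower in SH-SY5Y. PRRX2, the paralog of PRRX1, was lower in all 3 lines, by a log2 fold change of −5.49 ± 0.78, −2.08 ± 0.4 and −1.49 ± 0.13 (adjusted p 8.8e-06, 0.00066 and 2.5e-08), from 1.21 to 0.0221, 11.4 to 2.71 and 10.9 to 4.09 CPM, and at the SK-N-BE(2)C level, under 1 read a library at 7 d, the fitted fold depends on the prior count and is no bound. SNAI1 was lower in SK-N-BE(2)C and SH-SY5Y (−0.97 and −1.43, beside −0.8 ± 0.82 in IMR-32). Outside replicate 5 the IMR-32 libraries held 8.06 to 8.92 CPM of SNAI1 in controls and 6.32 to 13.9 at 5 d. TCF4 and TCF3 are the E proteins that pair with TWIST1. TCF4 passed no call (0.02, −0.06 and −0.19), and TCF3 was lower in IMR-32 (−0.65, beside −0.18 and −0.28). Among RUNX and SOX relatives, RUNX1T1 was lower in SK-N-BE(2)C and SH-SY5Y (−2.3 and −1.03, beside 0.1 in IMR-32), as was CBFB, the partner subunit of RUNX proteins (−0.57 and −0.68, beside −0.44). In that list 2 of 4 were lower and 2 higher in SK-N-BE(2)C, 1 of 3 lower in IMR-32, and 2 of 4 lower and 1 higher in SH-SY5Y.

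Notch signalling can drive the mesenchymal state. In IMR-32 5 of 12 of its genes were lower and none higher, in SK-N-BE(2)C 4 of 11 were lower and 3 higher, and in SH-SY5Y 4 of 13 were lower and 3 higher. NOTCH1 was lower in IMR-32 and SH-SY5Y (−3.5 ± 0.3 and −0.75 ± 0.23, beside 0.45 ± 0.48 at under 1 CPM in SK-N-BE(2)C), HES1 was lower in SK-N-BE(2)C and SH-SY5Y (−0.6 and −2.38), NOTCH3 was lower in IMR-32 and higher in SH-SY5Y (−1.12 and 0.73, beside 0.36 in SK-N-BE(2)C), and RBPJ passed no call (−0.14, 0.06 and −0.22). Of other factors of the mesenchymal state 6 of 18 were lower and 4 higher in SK-N-BE(2)C, 3 of 16 lower and 1 higher in IMR-32 (6 of 17 and none without replicate 5) and 6 of 17 lower and 2 higher in SH-SY5Y. ID1 was lower in SK-N-BE(2)C and SH-SY5Y (−1.06 ± 0.36 and −1.56 ± 0.14, beside −2.65 ± 1.9 in IMR-32), as was TBX18 (−2.1 and −0.98). In IMR-32 replicate 5 held 138 CPM of ID1 in controls and 15 at 5 d, beside 0.852 to 1.31 and 0.381 to 5.45 in the other replicates. NFIC was lower in IMR-32 (−0.69, beside −0.06 and −0.19), and AEBP1 passed no call (0.19, −0.18 and 0.34).

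Effector genes of the mesenchymal state, such as matrix, annexin and contractile genes, were lower in 8 of 21 tested and higher in 5 in SK-N-BE(2)C, lower in 7 of 16 and higher in 1 in IMR-32, and lower in 10 of 22 and higher in none in SH-SY5Y, beside the shares of all genes given above. In SK-N-BE(2)C every fit that left out 1 control or 7 d library gave fewer than 5 higher. These fits gave 2 (without control replicate 5) to 4 higher, with 3 without control replicate 1 or 3, and 8 to 9 lower. Libraries of SH-SY5Y differed in this list: control replicate 3 was highest of the 5 for 13 of the 22 genes (23.8% of all genes) and replicate 4 lowest for 12 (24.7%), the same numbers were highest and lowest for 12 each at 24 h (19% and 23.7%), and at 5 d replicate 1 was highest for 13 (30.1%) and replicate 5 lowest for 12 (28.3%). Leaving out any 1 control or 5 d library of SH-SY5Y, a check chosen after these values were seen, gave 10 to 11 lower and none higher, with 1 higher only without control replicate 3. PLAUR, the urokinase receptor, was lower in all 3 lines (−2.59 ± 0.41, −2.79 ± 0.27 and −1.1 ± 0.16), and LGALS1 (galectin-1) likewise (−1.92 ± 0.3, −0.99 ± 0.32 and −0.92 ± 0.12), though in IMR-32 at 1.46 to 0.741 CPM. ANXA2 was lower in SK-N-BE(2)C and SH-SY5Y (−0.89 and −0.59, beside −0.02 in IMR-32), and NES passed no call (−0.05, −1.03 and −0.12). Outside replicate 5 the IMR-32 libraries held 140 to 184 CPM of NES in controls and 49.6 to 92.4 at 5 d, beside 372 and 248 in that replicate. FN1 (fibronectin), named after its values were seen, went opposite ways, with 1.57 ± 0.31 in SK-N-BE(2)C and −1.86 ± 0.39 and −1.26 ± 0.13 in IMR-32 and SH-SY5Y (adjusted p 0.00039, 0.0013 and 5.1e-07). Summed over 24 genes, this list stood at 2350 to 2500 CPM in SK-N-BE(2)C controls and 1850 to 2270 at 7 d, at 813 to 1030 and 505 to 635 in IMR-32, and at 2340 to 3050 and 2040 to 2310 in SH-SY5Y, so that no sum at the longer time reached a control sum in any line.

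**Figure D4:**
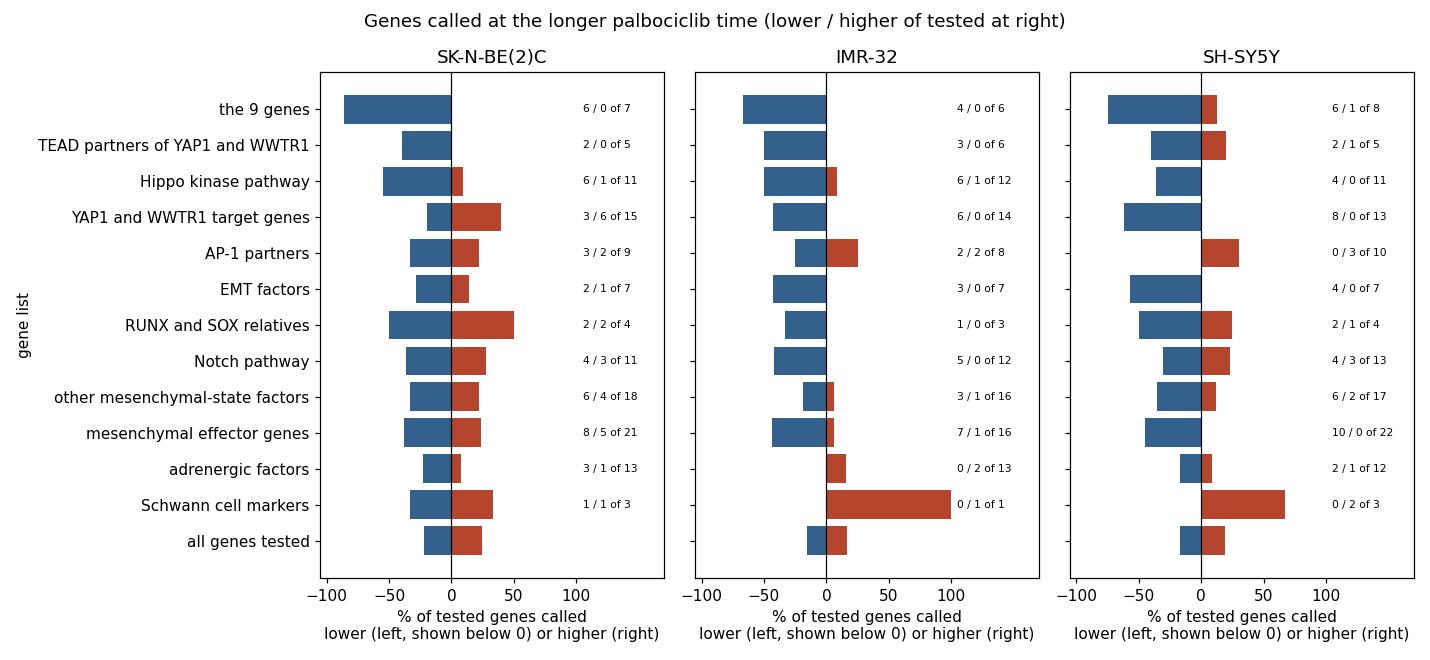
Share of the tested genes of each list called lower (blue, drawn left of 0) or higher (red, right) at the longer PB time, by line, with the counts lower and higher of those tested at the right and all genes tested as the last bar. The 9 genes have the longest bars to the left in each line (6 of 7, 4 of 6 and 6 of 8), while AP-1 partners have none to the left in SH-SY5Y.

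Of the adrenergic factors, 3 of 13 were lower and 1 higher in SK-N-BE(2)C, none lower and 2 higher of 13 in IMR-32, and 2 of 12 lower and 1 higher in SH-SY5Y. Their summed level went from 6590 to 7990 CPM in controls to 6770 to 7070 at 7 d in SK-N-BE(2)C, from 4090 to 5970 to 6120 to 6930 in IMR-32 and from 4180 to 4800 to 4350 to 5220 in SH-SY5Y, and only in IMR-32 did the groups not overlap. That rested on MYCN: without it SK-N-BE(2)C sums went from 3230 to 4040 in controls to 4360 to 4980, with no overlap. Those of IMR-32 (2790 to 4200, then 3990 to 4710) and SH-SY5Y (4180 to 4790, then 4340 to 5220) overlapped. At 24 h these sums were 4920 to 5360 in SH-SY5Y, above all controls. Those of SK-N-BE(2)C (3830 to 4460) and IMR-32 (4180 to 5150) overlapped their controls then. At 24 h 0 of 13, 5 of 13 and 2 of 12 factors were higher, and 0, 0 and 1 lower, beside 21.5%, 18.3% and 21.5% of all genes called. Without IMR-32 replicate 5 the higher ones there were 4 of 13. MYCN was lower at 7 d in SK-N-BE(2)C (−0.71 ± 0.097) and was not called at 5 d in IMR-32 or SH-SY5Y (0.32 and 0.27). HAND2 passed no call (0.44, 0.31 and −0.01), and SOX11 was lower in SK-N-BE(2)C and SH-SY5Y (−1.26 and −1.42, beside 0.23). Markers of Schwann cells, which also express SOX9 and VIM, were low: 4 of 5 listed were found and summed to 14.9 to 20.5 CPM in SK-N-BE(2)C controls and 15.4 to 25.3 at 7 d, 1.26 to 3.37 and 5.33 to 9.26 in IMR-32, and 3.23 to 5.1 and 5.92 to 13.5 in SH-SY5Y, with no overlap in IMR-32 and SH-SY5Y. Of these markers ERBB3 was higher in SH-SY5Y and lower in SK-N-BE(2)C (2.15 and −0.79). Their part in the results was not tested, and fewer cells of a type and less RNA per cell cannot be told apart in these bulk samples.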

How the data were processed

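PolyA RNA from 45 libraries was made with a directional kit and sequenced as paired reads by the authors, who trimmed it with Trim Galore 0.6.4 at a phred score of 20 or more and counted reads per gene with STAR 2.6.1d on hg19, as their methods and processing notes state (versions from the notes; the methods name another STAR release). The deposited values used here are raw whole-number counts per gene, 1 table per line. Deposited CPM tables and the authors' DESeq2 1.32.0 output (shrunken fold changes and p-values) were not used. All columns matched the labels.

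The members and gene lists were chosen with earlier results of these data known. Counts were scaled to CPM of each library total for display. Each line's 15 libraries were fitted with edgeR 4.0.16 (R 4.3.3) by the quasi-likelihood F test, with TMM factors, a filter on low counts (10 counts, total 15, share 0.7) and Benjamini-Hochberg adjustment over all genes tested (14293 in IMR-32, 14547 in SH-SY5Y and 14055 in SK-N-BE(2)C). Standard errors were taken as the absolute log2 fold change over the root of F. Lines were compared in 1 fit of all 45 libraries, at matched times only. Alternatives were other scaling, no filter, DESeq2 1.42.0, a replicate block, 1 fit of all libraries, no fold limit, each library left out, IMR-32 without replicate 5, and SK-N-BE(2)C replicates 3, 4 and 5 summed. On simulated counts 100 of 100 genes were recovered at a log2 fold of 1 and at 2 in the longer comparison of each line (13806, 14057 and 14277 genes). Of the unchanged genes 12, 5 and 8 were called. The changed genes were drawn from those with higher counts, with 1 fixed dispersion and no outlying library. The check therefore does not cover genes with few reads or values that rest on IMR-32 replicate 5.

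Replicate numbers are shared between groups and the labels do not say what they mark. Deviations from the group means correlated at over 0.1 between same-numbered libraries in every pair of groups (lowest 0.109 to 0.249) but the 2 with 7 d cells in SK-N-BE(2)C (lowest 0.0966 and 0.0482), so the numbers were taken to pair libraries in the other 7 comparisons. The fits by line behind the main counts did not use this pairing. Calls that a replicate block added in these 7 comparisons are named with the genes. Besides the members, the text names in each list the 2 most abundant genes and up to 2 with the largest mean change among those called in 1 direction in 2 lines or more, and for each member tested in all lines the 3 genes most correlated with it. Intervals and floors cover counting error or the spread between these libraries only. Positions are on GRCh37 and promoters on GRCh38.p14, both from given annotations. Some items are not reported here.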

Additional observations from a re-analysis of the deposited data

Results flagged for a closer look

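A library was far from the other 4 of its group in 10 of 77 groups of these genes, by a limit that chance alone passes in about 5% of groups. Of these 10, 9 were IMR-32 replicate 5. In IMR-32 controls it held 17.4 CPM of YAP1 beside 0.599 to 1.45 in the others, 28.2 of SNAI2 beside 0.125 to 1.03, 791 of VIM beside 316 to 361 and 6.44 of SOX9 beside 0.2 to 0.435. After 24 h it held 4.38 of YAP1 beside 0.597 to 0.782, 17.3 of SNAI2 beside 0.0978 to 0.892, 640 of VIM beside 246 to 313 and 1.63 of SOX9 beside 0 to 0.342. After 5 d it held 0.224 CPM of SOX9 beside 0 to 0.0545, which is 4 reads at most. The remaining library was SH-SY5Y control replicate 2, with 0.0526 CPM of RUNX1 from 1 read beside 0 in the others.

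The response of 3 genes differed between lines by a test of the difference. At 5 d SH-SY5Y minus IMR-32 was 2.93 for YAP1, −0.79 for FOSL2 and −0.51 for TWIST1 on the log2 scale, and none of these 3 was called without IMR-32 replicate 5. VIM, not called there (0.84, adjusted p 0.057), was called without it (0.69, adjusted p 0.025) and with the replicate block (0.81, adjusted p 2.6e-05). At 24 h TWIST1 differed by 0.6 between IMR-32 and SK-N-BE(2)C and by −0.68 between SH-SY5Y and IMR-32, and both were called with and without that replicate.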

How the results depend on the processing

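Outside the fits that left out 1 library, 143 counts stayed within 1.5 times of the reported ones and 20 did not, and 553 values of single genes kept their direction and side of the threshold, with 17 losing and 26 gaining a call and 7 reversed. With no fold change limit the genes called at 24 h, at the longer time and between them rose from 3022, 6572 and 4488 to 6577, 9993 and 8335 in SK-N-BE(2)C, from 2620, 4576 and 2803 to 4738, 7296 and 4914 in IMR-32 and from 3129, 5225 and 2434 to 7154, 9516 and 6331 in SH-SY5Y, and 3 of the followed genes were called at 24 h in SK-N-BE(2)C. With the replicate block 2 of them were called at 24 h and 4 at 7 d against 24 h in SK-N-BE(2)C, where the numbers did not pair the latter groups. In IMR-32 the block added calls of SNAI2 at 5 d and of YAP1 at 5 d against 24 h. In SH-SY5Y it added SOX9 at 5 d and at 5 d against 24 h. DESeq2 called 2 at 24 h in SK-N-BE(2)C. Summing SK-N-BE(2)C replicates 3, 4 and 5 gave 2 at 24 h and 0 at 7 d against 24 h. One fit of all 45 libraries called 3 at 7 d in SK-N-BE(2)C, 1 (YAP1) at 24 h in IMR-32 and 2 at 24 h in SH-SY5Y. No filter left 1 in IMR-32 at 5 d against 24 h, and IMR-32 without replicate 5 gave 4 between the IMR-32 and SK-N-BE(2)C controls, of which SNAI2 then fails the filter in IMR-32. The cause of these moves was not tested.

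Reversed values were small or rested on IMR-32 replicate 5: FOSL2 at 5 d against 24 h in IMR-32 (0 with no filter, −0.03 in the fit of 45), the controls of SH-SY5Y minus SK-N-BE(2)C for FOSL1 (0.01) and minus IMR-32 for FOSL2 (0.09) with library size alone, the 24 h difference of VIM between IMR-32 and SK-N-BE(2)C (0.02 with the block, 0.02 without replicate 5) and that of YAP1 between SH-SY5Y and IMR-32 (−0.31 without replicate 5). Leaving out 1 library gave 1 to 2 genes called at 24 h and 1 to 4 at 7 d against 24 h in SK-N-BE(2)C, and 0 to 1 and 1 to 3 in IMR-32. Log2 fold changes then ranged from −0.27 to 0.17 for FOSL1 at 24 h in SK-N-BE(2)C and from −0.23 to 0.16 for SOX9 at 24 h in SH-SY5Y. In IMR-32 they ranged at 24 h from −2.58 to 0.42 for YAP1, −4.12 to 3.15 for SNAI2 and −0.59 to 0.09 for VIM, at 5 d from −3.63 to 1.23 for SNAI2, and at 5 d against 24 h from −0.05 to 0.09 for FOSL2 and −2.94 to 1.51 for SNAI2. Depth limits YAP1 and RUNX1 in SK-N-BE(2)C, WWTR1, FOSL1 and SOX9 in IMR-32 and RUNX1 in SH-SY5Y, where most libraries held fewer than 10 reads.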
